A study of Mus musculus with 16 samples.

Results

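Tight junctions are the seal at the top of the lateral membrane of epithelial cells, and their mRNAs were followed here in Paneth cells, the secretory cells at the base of the crypts of the small intestine. The genes described are 10 named claudin and tight junction genes, chosen by name: Cldn2, Cldn3, Cldn4, Cldn7, Cldn15, Cldn23, Ocln, Tjp1, F11r and Cgn. They are 10 of the 55414 genes in the count table, and all 10 were among the 11809 genes that passed the low-count filter and were tested.

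Claudins are small membrane proteins whose extracellular loops meet between neighbouring cells and decide which ions and how much water pass. Some claudins seal the space between cells, whereas Cldn2 and Cldn15 form channels for small cations and water. Occludin (Ocln) is a further membrane protein of the strands, F11r encodes the adhesion receptor junctional adhesion molecule A, and Tjp1 (ZO-1) and Cgn (cingulin) are plaque proteins that tie the strands to the actin cytoskeleton. In the intestine, tumour necrosis factor (TNF) is known for loosening this barrier.

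Purified Paneth cells were taken from the small intestine of mice, C57BL/6J according to the methods of the study, in 4 groups of 4 biological replicates. Each mouse was injected with DEX or with the vehicle PBS and, 1 h after that, with TNF or again with PBS, and cells were collected 3 h later. DEX, which the labels do not spell out, usually stands for the glucocorticoid dexamethasone. The 4 groups, DEX+TNF, DEX+PBS, PBS+TNF and PBS+PBS, are named by both injections, every mouse received both injections, and doses, age and sex are not given in the sources used here.

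Library totals ran from 7286307 to 15832111 counts, and between 22 and 10026 of them fell on a given gene of the 10 in a given library. Paneth cell markers, 8 genes including Lyz1, Mmp7 and 3 alpha-defensins, took 42.2% to 63.4% of the counts of a library, so the labelled cell type was present in all 16. Nfkbia, the NF-kB inhibitor that TNF induces, separated PBS+TNF, at 277 to 337 CPM (CPM, counts scaled to a common library total with TMM factors), from the 8 libraries without TNF, at 15.6 to 27.3 CPM. The library labelled DEX+TNF 3 had 28.3 CPM and the library labelled DEX+TNF 4 had 41.0 CPM, closer to the libraries without TNF than to PBS+TNF, whereas DEX+TNF 1 and 2 had 330.0 and 382 CPM. Sgk1, a glucocorticoid target, was at 17.6 to 48.5 CPM in DEX+PBS and at 24.8 to 115 CPM in all 4 DEX+TNF libraries. It was at 1.11 to 3.64 CPM in PBS+PBS and at 4.82 to 7.94 CPM in PBS+TNF. Tsc22d3, another glucocorticoid target, ranged from 10.1 to 16.8 CPM in PBS+PBS and from 4.82 to 7.13 CPM in PBS+TNF. With DEX alone it had 20.3 to 27.0 CPM, and the 4 DEX+TNF libraries, in order, had 11.4, 10.7, 24.9 and 49.4 CPM. Whether the animals of DEX+TNF libraries 3 and 4 received TNF as labelled cannot be told from these data, so the calls with DEX+TNF are given with and without both. PBS+PBS library 4 and PBS+TNF library 1 had the lowest TMM factors, 0.503 and 0.418, against at least 0.740 in the other 14 libraries.

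The bases just before the start sites of 4 genes are shown, picked because their CPM with TMM factors did not overlap between PBS+TNF and PBS+PBS. No comparison of levels below uses these bases. They are RefSeq promoter sequences placed by exact match on GRCm39, written 5′ to 3′ on the strand of the gene, and they stop before the first transcribed base of the canonical GENCODE transcript. For Cldn7, where an exon of another transcript covers the window, 30 bases around a match are given. Capitals mark matches to the motifs named after the sequences.
F11r (chr1:171264879-171265091, plus strand): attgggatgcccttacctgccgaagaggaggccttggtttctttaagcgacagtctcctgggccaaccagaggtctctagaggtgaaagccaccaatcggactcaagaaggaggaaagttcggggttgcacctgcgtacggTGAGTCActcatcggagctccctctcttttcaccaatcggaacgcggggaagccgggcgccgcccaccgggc
Cldn7 (chr11:69856051-69856080, plus strand): accccagggacTTCTGAGAAgccgtcgcct
Cldn4 (chr5:134975789-134976038, minus strand): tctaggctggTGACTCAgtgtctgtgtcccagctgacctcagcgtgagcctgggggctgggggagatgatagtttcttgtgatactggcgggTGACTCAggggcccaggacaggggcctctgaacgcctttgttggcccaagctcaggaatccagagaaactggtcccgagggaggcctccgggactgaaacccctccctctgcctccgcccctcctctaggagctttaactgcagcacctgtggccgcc
Cldn2 (chrX:138701307-138701479, plus strand): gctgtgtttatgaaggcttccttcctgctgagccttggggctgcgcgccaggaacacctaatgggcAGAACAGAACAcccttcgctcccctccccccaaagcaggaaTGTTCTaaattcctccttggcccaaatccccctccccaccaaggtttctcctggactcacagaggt

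The motifs were searched on both strands in the 250 bases before each RefSeq start, in 11737 windows of tested genes, of which 11 belonged to 9 of the 10 genes. Cldn23 had no window. The AP-1 motif TGANTCA, which reads the same on both strands, lay 109 to 103 bases before the F11r start, at 240 to 234 and 158 to 152 bases before the Cldn4 start, and once in the Cldn15 window. It occurred in 4.52% of all windows. The STAT motif TTCNNNGAA lay 185 to 177 bases before 1 of the 2 Cldn7 starts and occurred in 5.74% of all windows. In the Cldn2 window the hexamer AGAACA of the glucocorticoid receptor's site matched 3 times, 2 of the matches sharing 1 base, and 10.8% of all windows held it. A TATAAA lay 35 to 30 bases before the RefSeq start of Cldn2, past the printed stretch, and 6.53% of windows held TATAAA. The canonical GENCODE start of Cldn2 lies 77 bases before its RefSeq start, so this TATAAA falls after the canonical start. The 10-base kB consensus bound by NF-kB had no match in the 11 windows and occurred in 8.85% of all windows, which says only that these letters were not in those 250 bases.

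At rest 5 of the 6 claudins had the highest mean levels per kilobase of the 10 genes, and the sixth, Cldn23, had the lowest mean. Without division by length F11r, at 67.6 ± 23.2 CPM, had a higher mean than Cldn4, at 58.2 ± 3.42 CPM. Per kilobase of exon in PBS+PBS, Cldn3 was highest at 105 ± 23.3 CPM per kb (SD, n = 4), followed by Cldn15 at 63.9 ± 6.76, Cldn7 at 53.9 ± 13.5, Cldn2 at 45.0 ± 16.5 and Cldn4 at 32.1 ± 1.88 CPM per kb. F11r stood at 19.5 ± 6.71 CPM per kb. The other 4, Tjp1 at 4.98 ± 1.39, Ocln at 4.90 ± 0.507, Cgn at 3.98 ± 0.917 and Cldn23 at 3.41 ± 1.39 CPM per kb, could not be ordered within their SDs. Cldn15, Cldn7 and Cldn2 were likewise not separated beyond their spread. Cldn23 had the fewest reads, 22 to 135 counts per library.

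After TNF the order changed in its upper part. In PBS+TNF, Cldn3 was at 135 ± 18.3 CPM per kb, Cldn2 at 121 ± 39.7 and Cldn7 at 107 ± 9.88 CPM per kb, and all 3 were above Cldn15 at 66.1 ± 11.4 CPM per kb. F11r, at 54.7 ± 6.92, reached the level per kilobase of Cldn4, at 54.1 ± 7.80 CPM per kb. Cldn3, the sealing claudin with the highest level per kilobase in all 4 groups, and Cldn2, a channel former, could not be ordered within their spread in PBS+TNF.

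**Figure D1:**
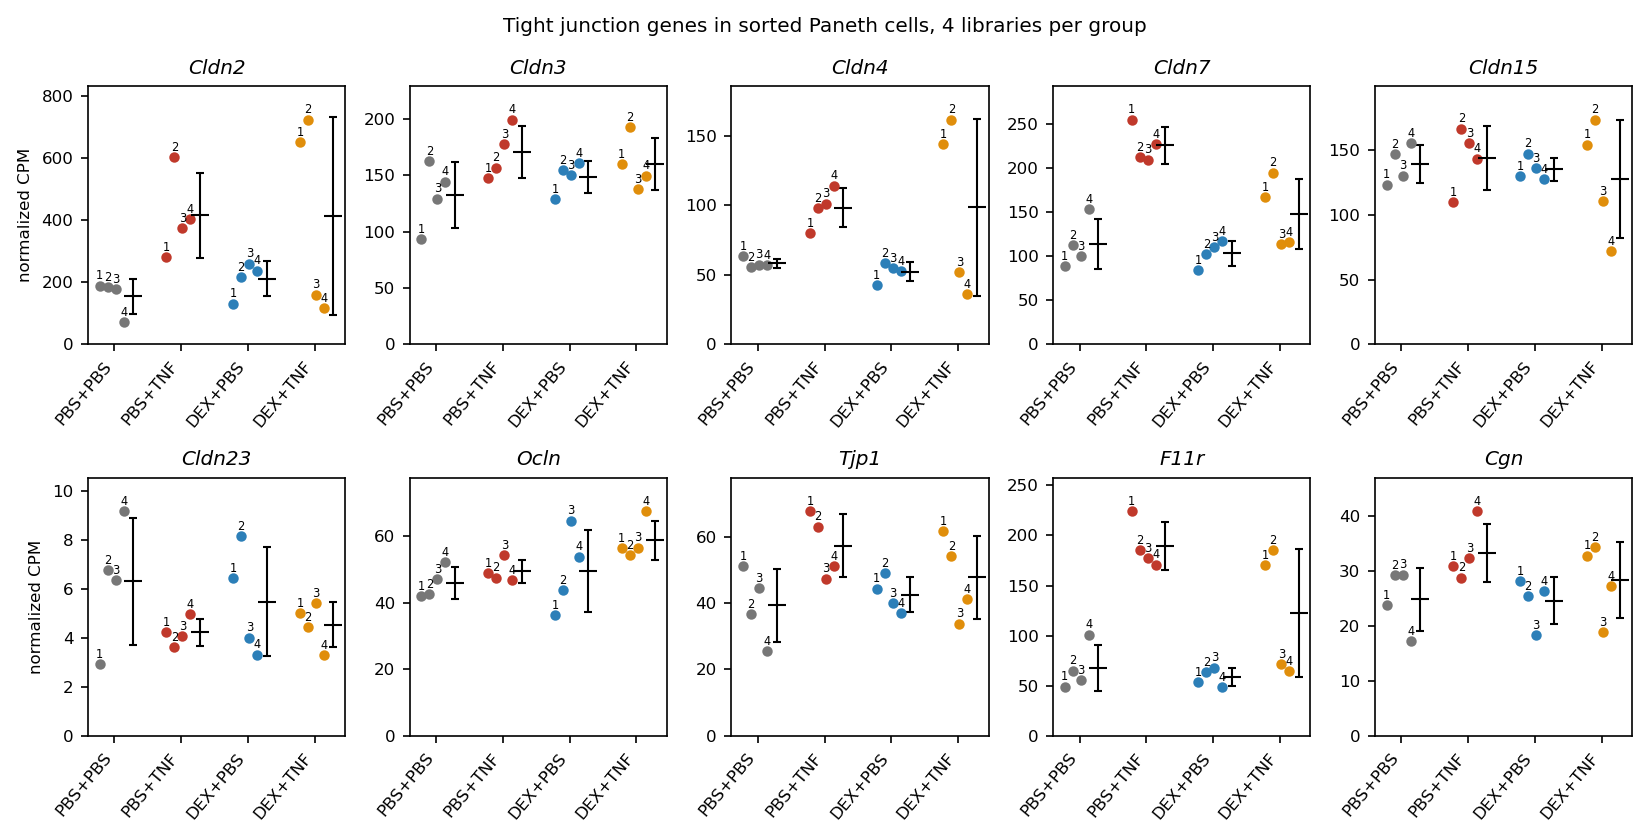
Normalized CPM (y axis, linear, from 0) of each of the 10 genes in every library, with 1 point per library, its replicate number beside it, and the mean ± SD of the 4 libraries of a group. For F11r, Cldn7, Cldn2 and Cldn4 all 4 PBS+TNF points lie above all 4 PBS+PBS points, and in DEX+TNF points 1 and 2 lie above points 3 and 4.

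TNF was followed by higher F11r and Cldn7 mRNA. Of the 10 genes, 2 rose in PBS+TNF against PBS+PBS and none fell (edgeR quasi-likelihood test, Benjamini-Hochberg adjusted p under 0.05), where 7.15% of all tested genes rose. Over all genes 844 rose and 632 fell, a split of 747 to 865 with upper-quartile factors and of 199 to 29 with library totals only. With TMM factors, all 4 libraries with TNF lay above all 4 without it for 4 of the 10, F11r, Cldn7, Cldn2 and Cldn4. Of all tested genes 10.8% did so. With library totals only, F11r stayed apart, with the highest PBS+PBS library at 72.3 and the lowest PBS+TNF library at 93.6. The same values were 131 and 107 for Cldn7, 232 and 117 for Cldn2 and 74.9 and 33.3 for Cldn4, so these overlapped. With TMM factors the median log2 fold change of the 10 was 0.48 and that of all tested genes was -0.03. Of the 10 genes 9 were above 0, where 47.4% of all tested genes were. As in any bulk sample, fewer cells of a type and less RNA per cell cannot be told apart in these values.

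F11r, the adhesion receptor gene (ENSMUSG00000038235, chromosome 1, 171265092 to 171292958, plus strand, GRCm39 as for all positions), had the largest change. Its 4 PBS+PBS libraries had 49.1, 64.9, 55.2 and 101 CPM, and its 4 PBS+TNF libraries had 224, 185, 177 and 171 CPM. PBS+PBS library 4 was the highest control, and all 4 TNF libraries lay above it. The log2 fold change was 1.49 (edgeR adjusted p = 0.00758, SE 0.33), which is 2.81-fold, from a mean of 67.6 ± 23.2 to 189 ± 23.9 CPM (SD, n = 4). It passed the threshold in 28 of 28 alternative fits, with adjusted p from 0.000131 to 0.0443. A long non-coding RNA gene on the other strand, Gm26641, overlaps the F11r gene and had no row in the count table.

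Cldn7 (ENSMUSG00000018569, chromosome 11, 69852648 to 69858711, plus strand) encodes a claudin that epithelia also place along the lateral membrane below the junction. It had 88.7, 113, 100.1 and 154 CPM in the PBS+PBS libraries and 255, 212, 209.9 and 227 CPM in the PBS+TNF libraries. With TMM factors the groups were apart and the spread in PBS+TNF was small. The log2 fold change was 0.99 (edgeR adjusted p = 0.0105, SE 0.23), a 1.99-fold rise, and it passed in 27 of 28 alternative fits. The exception scaled libraries by their totals alone, with an adjusted p of 0.160. Elp5, which overlaps Cldn7 on the minus strand, was at 11.6 to 21.6 CPM and had a log2 fold change of 0.21 (edgeR adjusted p = 0.580). Whether the counting used the strand is not given in the sources used here.

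Cldn2 and Cldn4 moved in the same direction without passing the test. Cldn2, the cation and water channel former (ENSMUSG00000047230, chromosome X, 138701480 to 138712135, plus strand), had 189, 183, 177 and 70.1 CPM in PBS+PBS and 280.3, 604, 374 and 404 CPM in PBS+TNF. Library 4 of PBS+PBS and library 2 of PBS+TNF were far from the rest of their groups, and with TMM factors the groups did not overlap. The log2 fold change was 1.43 (edgeR adjusted p = 0.0717, SE 0.50), with 2.69-fold as the fitted size. The edgeR value depended on the DEX+TNF libraries, which share the estimate of the spread: without library 3 the adjusted p was 0.0481, without library 4 it was 0.0316, and without both it was 0.00508, at log2 fold changes of 1.43. It depended on the tool as well: DESeq2 with all 16 libraries called Cldn2 at a log2 fold change of 1.43 and an adjusted p of 0.0218. DESeq2 thus called 3 of the 10 genes, F11r, Cldn7 and Cldn2, where it called 17.5% of tested genes.

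Cldn4, a sealing claudin (ENSMUSG00000047501, chromosome 5, 134973973 to 134975788, minus strand), had 63.2, 55.5, 57.2 and 56.9 CPM in PBS+PBS and 79.8, 98.0, 101 and 114 CPM in PBS+TNF. With TMM factors its controls lay close together, with an SD of 5.87% of their mean, the lowest of the 10 genes, and the groups did not overlap. With library totals only, the Cldn4 controls ran from 28.6 to 74.9. The log2 fold change was 0.76 (edgeR adjusted p = 0.178, SE 0.35), and without DEX+TNF libraries 3 and 4 the adjusted p was 0.00483 at a log2 fold change of 0.76. With those libraries left out, F11r, Cldn7, Cldn2 and Cldn4 were called, 4 of the 10, where 17.7% of 12223 tested genes were called.

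The other 6 genes did not pass the test in this comparison. Tjp1, the ZO-1 scaffold (ENSMUSG00000030516, chromosome 7, 64945898 to 65177529, minus strand), was at 25.5 to 51.1 CPM in PBS+PBS and at 47.5 to 67.8 CPM in PBS+TNF, with a log2 fold change of 0.54 (edgeR adjusted p = 0.154, SE 0.24). Cgn, a further plaque protein (ENSMUSG00000068876, chromosome 3, 94667376 to 94695136, minus strand), was at 17.2 to 29.3 and 28.8 to 40.9 CPM with a log2 fold change of 0.42. Both had overlapping groups, and annotated non-coding genes overlap both. Cldn3, which lies beside Cldn4 on chromosome 5 (ENSMUSG00000070473, 135015068 to 135016326, plus strand), ranged from 93.6 to 163 CPM in PBS+PBS and from 148 to 199 CPM in PBS+TNF, with a log2 fold change of 0.36 against the 0.76 of Cldn4.

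Ocln, Cldn15 and Cldn23 showed the smallest or opposite differences. Ocln (ENSMUSG00000021638, chromosome 13, 100630334 to 100689535, minus strand) was at 42.0 to 52.3 CPM in PBS+PBS and 46.8 to 54.3 CPM in PBS+TNF (log2 fold change 0.10, SE 0.19). Cldn15, the other channel former (ENSMUSG00000001739, chromosome 5, 136995470 to 137004712, plus strand), was at 123 to 155 and 109.6 to 167 CPM (log2 fold change 0.05, SE 0.24). The sign of both depended on the scaling: with upper-quartile factors they were -0.0058 and -0.06. Cldn23 (ENSMUSG00000055976, chromosome 8, 36291866 to 36293713, minus strand) had the only negative value of the 10, a log2 fold change of -0.57 (edgeR adjusted p = 0.313, SE 0.34), at 2.91 to 9.17 CPM in PBS+PBS and 3.62 to 4.95 CPM in PBS+TNF.

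**Figure D2:**
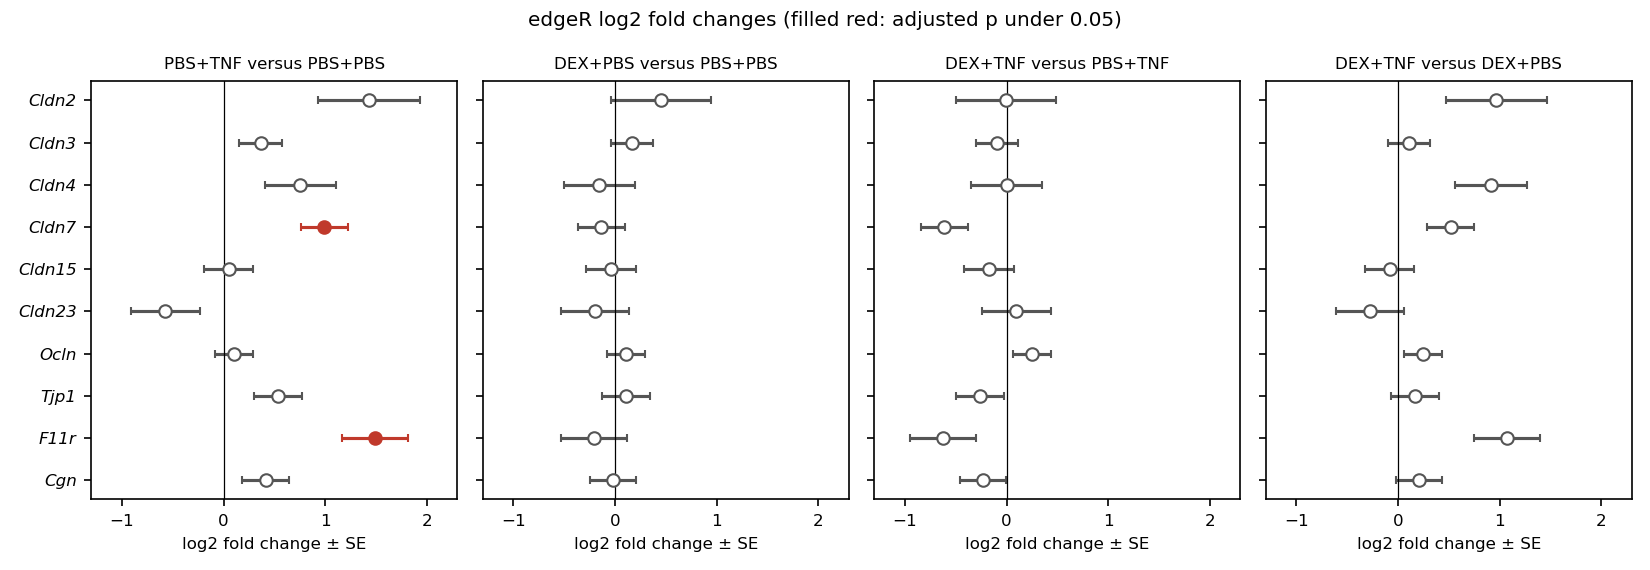
edgeR log2 fold change ± SE (x axis) of each of the 10 genes in the 4 pairwise comparisons, 4 libraries per group, with filled red points at adjusted p under 0.05. The filled points are F11r and Cldn7 in PBS+TNF versus PBS+PBS, at 1.49 and 0.99, and no other point is filled.

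Markers of other cells moved with the TNF injection as well. The summed level of 16 enterocyte markers was 379 to 585 CPM in PBS+PBS and 123 to 167 CPM in PBS+TNF, lower in all 4 libraries, with every marker detected in both groups. Of 13 tested enterocyte markers 2 fell, among them Anpep, a peptidase of the brush border (log2 fold change -2.22, edgeR adjusted p = 0.00285). The stem cell markers Lgr5, Smoc2 and Rgmb fell as well, 3 of 7 tested, where 5.35% of all tested genes fell, with log2 fold changes of -1.58, -0.80 and -1.27. The part of other cells in the junction values was not tested. The cells had been sorted by flow cytometry, according to the methods of the study. Goblet markers overlapped, at 8998 to 40338 CPM summed in PBS+PBS and 15822 to 39856 CPM in PBS+TNF. Of 5 endothelial markers Cdh5, Cldn5, Kdr and Emcn had no count in either group, and 5 stromal markers summed to at most 0.211 CPM.

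After DEX alone no difference in the 10 genes passed the test. None was called in DEX+PBS against PBS+PBS (edgeR), where 0.00847% of tested genes, 1 gene, were called. None of the 10 had an unadjusted p under 0.05, against 224 of all tested genes, and DESeq2 called 0 of the 10. The log2 fold changes ran from -0.21 for F11r to 0.45 for Cldn2 (SE 0.49), with a median of -0.03. F11r had 53.5, 63.8, 67.9 and 48.7 CPM in the DEX+PBS libraries and Cldn7 had 84.3, 102, 110.0 and 117 CPM, both overlapping with PBS+PBS. Cldn2 had 131, 217, 260.4 and 238 CPM, so that 3 of 4 libraries were above all controls and 1 was below 3 of them.

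In DEX+TNF the values split within the group. F11r had 170.3, 185, 71.2 and 64.5 CPM in libraries 1 to 4, Cldn7 had 168, 195, 114 and 116 CPM, Cldn2 had 653, 724, 160.4 and 117 CPM, and Cldn4 had 144, 162, 52.1 and 36.1 CPM. Libraries 1 and 2 were above all 8 libraries without TNF for these 4 genes, and the libraries labelled DEX+TNF 3 and 4 were not. The same held for Tjp1, at 61.9, 54.3, 33.9 and 41.2 CPM, and for Cgn, at 32.7, 34.4, 18.9 and 27.3 CPM. With TMM factors that is 6 of the 10 genes, against 13.1% of all tested genes and 49.5% of the 844 genes that rose in PBS+TNF. The pattern depended on the scaling. With library totals only, Cldn2 and Cldn4 kept it, and F11r, Cldn7, Tjp1 and Cgn did not. For F11r, library 4 was then at 96.6, against at most 72.3 in the libraries without TNF. The same values were 173 against 165 for Cldn7, 61.7 against 58.3 for Tjp1 and 40.8 against 38.4 for Cgn. For Cgn, libraries 1 and 2 were themselves below that 38.4, at 35.3 and 35.1. For Tjp1, library 2 was below that 58.3, at 55.4. Cldn3, Ocln, Cldn23 and Cldn15 did not show the pattern with TMM factors. Cldn15 was lowest in library 4, at 72.0 CPM against 154 and 174 CPM in libraries 1 and 2. The library labelled DEX+TNF 4 also had the highest summed level of the 16 enterocyte markers and of 5 tuft cell markers, at 925 and 579.5 CPM, and library 3 had 293 and 156 CPM. In DEX+TNF 1 and 2 these sums were 170.4 and 157 CPM for enterocytes and 1.45 and 0.162 CPM for tuft cells. The part of these markers in the junction values was not tested.

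With TMM factors the place of DEX+TNF libraries 1 and 2 relative to PBS+TNF differed between genes. For Cldn2 and Cldn4 both lay above the highest PBS+TNF library, at 604 and 114 CPM. For Cldn7 both lay below the lowest PBS+TNF library, at 209.9 CPM, and above the highest library without TNF, at 154 CPM. For F11r library 1 lay just under and library 2 within the PBS+TNF range of 171 to 224 CPM. The placements depended on the scaling. With library totals only, Cldn2 was at 703 and 739 in these 2 libraries, below the highest PBS+TNF library at 758. Cldn4 was at 155 and 164.8, against 164.6 in the highest PBS+TNF library. Cldn7, at 181 and 199, then lay within the PBS+TNF range of 107 to 328. These placements of 2 libraries are a description, with no test.

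**Figure D3:**
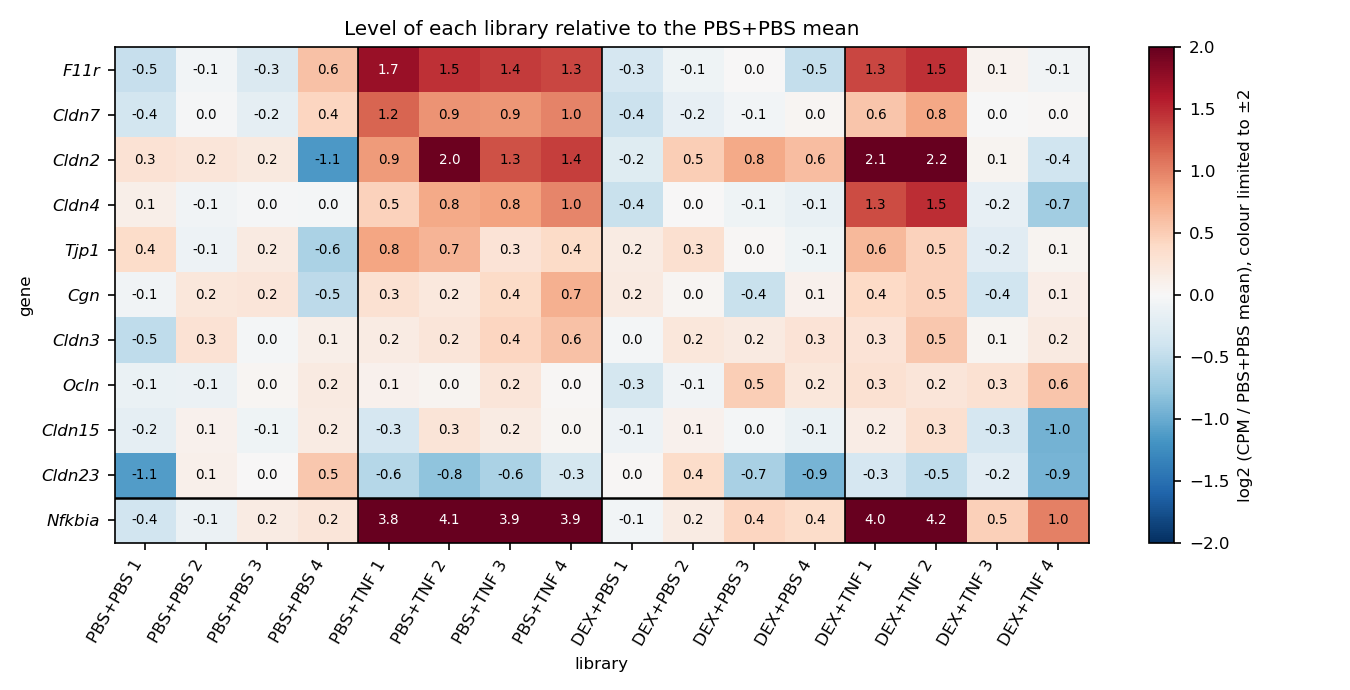
log2 ratio of the CPM of each library to the PBS+PBS mean (colour, limited to 2 in either direction, with the value printed in each cell) for the 10 genes and Nfkbia, libraries in columns by group. F11r, Cldn7, Cldn2 and Cldn4 are red in all PBS+TNF libraries and in DEX+TNF 1 and 2, and Nfkbia is at 0.48 and 1.02 in DEX+TNF 3 and 4, above the 0.42 of the highest library without TNF and below the 3.77 of the lowest PBS+TNF library.

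TNF after DEX was compared as DEX+TNF against DEX+PBS. With all 16 libraries none of the 10 genes was called (edgeR), where 0.339% of tested genes were. By unadjusted p under 0.05 there were 3 of the 10, against 1227 of all genes, and DESeq2 called 0 of the 10. The log2 fold changes were 1.07 for F11r (edgeR adjusted p = 0.187, SE 0.33), 0.97 for Cldn2 (SE 0.50, adjusted p = 0.526), 0.91 for Cldn4 (SE 0.35, adjusted p = 0.330) and 0.52 for Cldn7 (SE 0.23, adjusted p = 0.435). The values rested on which DEX+TNF libraries entered.

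Without the libraries labelled DEX+TNF 3 and 4, 4 of the 10 genes rose, where 7.2% of 12223 tested genes did. Cldn4 had a log2 fold change of 1.55 (edgeR adjusted p = 7.3e-05, SE 0.20), Cldn2 of 1.70 (SE 0.37, adjusted p = 0.00666), F11r of 1.60 (SE 0.26, adjusted p = 0.000642) and Cldn7 of 0.81 (SE 0.23, adjusted p = 0.0357). The remaining 6 did not pass. Without library 3 alone F11r was called (adjusted p = 0.0431, 2.46% of tested genes higher), and without library 4 alone F11r and Cldn4 were (adjusted p = 0.0387 and 0.0395, 1.8% higher). The pair of libraries was chosen after their values were seen.

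DEX+TNF against PBS+TNF asks whether mRNA levels after TNF differed with DEX pretreatment, and shares its PBS+TNF libraries with the first comparison. None of the 10 was called, where 0.339% of tested genes were, 1 had an unadjusted p under 0.05 against 1408 of all genes, and DESeq2 called 0. With TMM factors Cldn7 was lower in all 4 DEX+TNF libraries than in any PBS+TNF library, as were 2.91% of tested genes. With library totals only, Cldn7 overlapped, at 107 in PBS+TNF library 1 and at 181, 199 and 173 in DEX+TNF libraries 1, 2 and 4. Its log2 fold change with TMM factors was -0.61 (edgeR adjusted p = 0.293, SE 0.23). Without DEX+TNF libraries 3 and 4 its value was -0.31 (SE 0.24, adjusted p = 0.618). F11r had -0.63 (SE 0.32, adjusted p = 0.466), and -0.09 without these libraries. For Cldn2 and Cldn4 the sign of the difference changed in 4 and 11 of 28 alternative fits, so no direction is given. Without libraries 3 and 4 Cldn2 had 0.73 (SE 0.38, adjusted p = 0.529) and Cldn4 0.64 (SE 0.20, adjusted p = 0.367), and none of the 10 was called.

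The interaction, the TNF difference after DEX minus that after PBS, called none of the 10 genes, where 0.0% of tested genes were called. No gene of the 10 had an unadjusted p under 0.05, against 642 of all tested genes, and DESeq2 called 0 of the 10. The estimates ran from -0.47 for Cldn7 (SE 0.33) to 0.29 for Cldn23 (SE 0.48). Without DEX+TNF libraries 3 and 4 none of the 10 was called either, and the highest estimate, that for Cldn4, was 0.79 (edgeR adjusted p = 0.805, SE 0.26), that for Cldn2 was 0.28 (SE 0.50) and the lowest, that for Cldn7, was -0.18 (SE 0.31).

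The shares of Cldn15 and Cldn23 among the claudins were lower in every PBS+TNF library than in any PBS+PBS library. Of the counts per kilobase of the 6 claudins, Cldn15 held 21.4%, 20.0%, 20.2% and 22.6% in the PBS+PBS libraries and 12.1%, 14.4%, 14.9% and 12.8% in the PBS+TNF libraries. Cldn23, the claudin with the fewest counts, held 0.596% to 1.57% in PBS+PBS and 0.367% to 0.551% in PBS+TNF. The levels of Cldn15 and Cldn23 themselves, described above, overlapped between these groups. Cldn2 held 15.1 ± 6.12% in PBS+PBS and 24.5 ± 5.82% in PBS+TNF (SD, n = 4), with overlap between library 1 of each, at 20.8% and 19.6%. Cldn3 held 34.3 ± 4.40% and 27.9 ± 3.24%, and Cldn7 17.7 ± 3.61% and 22.4 ± 4.53%. In DEX+TNF, Cldn2 held 34.6% and 33.6% in libraries 1 and 2 and 16.0% and 13.0% in the libraries labelled 3 and 4, and Cldn3 held 45.3% in library 4. Shares add up to a fixed total, so a higher share of 1 claudin lowers the others, and these values carry no test.

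**Figure D4:**
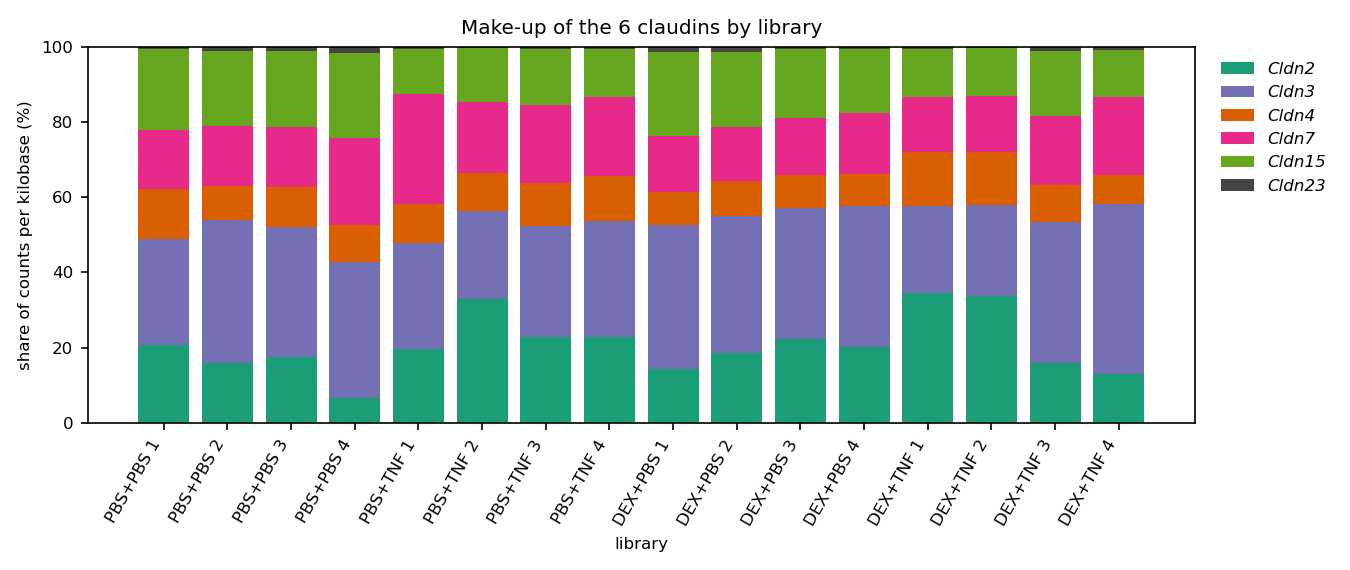
Share of each of the 6 claudins in their summed counts per kilobase (y axis, percent, stacked to the full total) in each of the 16 libraries. Cldn15 narrows from 20.0% to 22.6% in PBS+PBS to 12.1% to 14.9% in PBS+TNF, and Cldn2 reaches 33.0% in PBS+TNF 2 and 34.6% and 33.6% in DEX+TNF 1 and 2.

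Other junction genes were followed with a list of 78, of which 55 were tested, 23 fell under the filter and 8 of those had no count in any library. In PBS+TNF against PBS+PBS 7 rose and 1 fell, where 7.15% of tested genes rose and 5.35% fell, and the median log2 fold change of the 55 was 0.42. The 8 calls became 4 without PBS+PBS library 1 or without PBS+TNF library 4, 15 without DEX+TNF library 3 and 0 with library totals only. Of the other membrane proteins of the tight junction 3 of 7 rose, of the plaque and polarity proteins 3 of 18 rose and 1 fell, and of the adherens junction 1 of 12 rose. None of 8 actomyosin regulators, 7 desmosome genes and 3 other claudins was called. The other claudins tested were Cldn6, Cldn9 and Cldn12.

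Cxadr, a receptor of the junctional adhesion molecule family, had the largest rise of the list. It was at 35.1, 35.3, 40.2 and 18.0 CPM in PBS+PBS and at 145, 294, 171 and 199 CPM in PBS+TNF, a log2 fold change of 2.65 (edgeR adjusted p = 0.00468, SE 0.53). Nectin2, an adhesion molecule of the adherens junction, rose from 23.0 to 33.1 CPM to 46.6 to 97.5 CPM (log2 fold change 1.40, adjusted p = 0.0175). Pals1, a scaffold of the Crumbs polarity complex, had 9.92 to 16.8 CPM and 32.4 to 50.3 CPM (log2 fold change 1.38, adjusted p = 0.00542), and Tjp3, the ZO-3 scaffold, 26.4 to 52.2 CPM and 55.3 to 102 CPM (log2 fold change 1.17, adjusted p = 0.0178). With TMM factors none of these 4 overlapped between the groups.

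Prkcz, the atypical protein kinase of the Par polarity complex, was the gene that fell. It had 21.8, 26.8, 29.2 and 22.2 CPM in PBS+PBS and 6.74, 12.8, 11.6 and 13.2 CPM in PBS+TNF, a log2 fold change of -1.16 (edgeR adjusted p = 0.00505, SE 0.24). Marveld3 and Lsr, which lie outside the rule for naming genes and are named after their values were seen, rose by 1.07 and 0.92 on the log2 scale. In the other 3 pairwise comparisons and the interaction edgeR called none of the 55. By unadjusted p under 0.05 there were 1 of the 55 in DEX+PBS against PBS+PBS, 6 in DEX+TNF against PBS+TNF, 9 in DEX+TNF against DEX+PBS and 1 in the interaction, against 224, 1408, 1227 and 642 of the 11809 tested genes. DESeq2 called 0, 1, 2 and 0 of the 55, against 7, 274, 259 and 9 of all genes. Cxadr was split in DEX+TNF as F11r was, at 199, 217, 28.0 and 36.2 CPM in libraries 1 to 4.

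**Figure D5:**
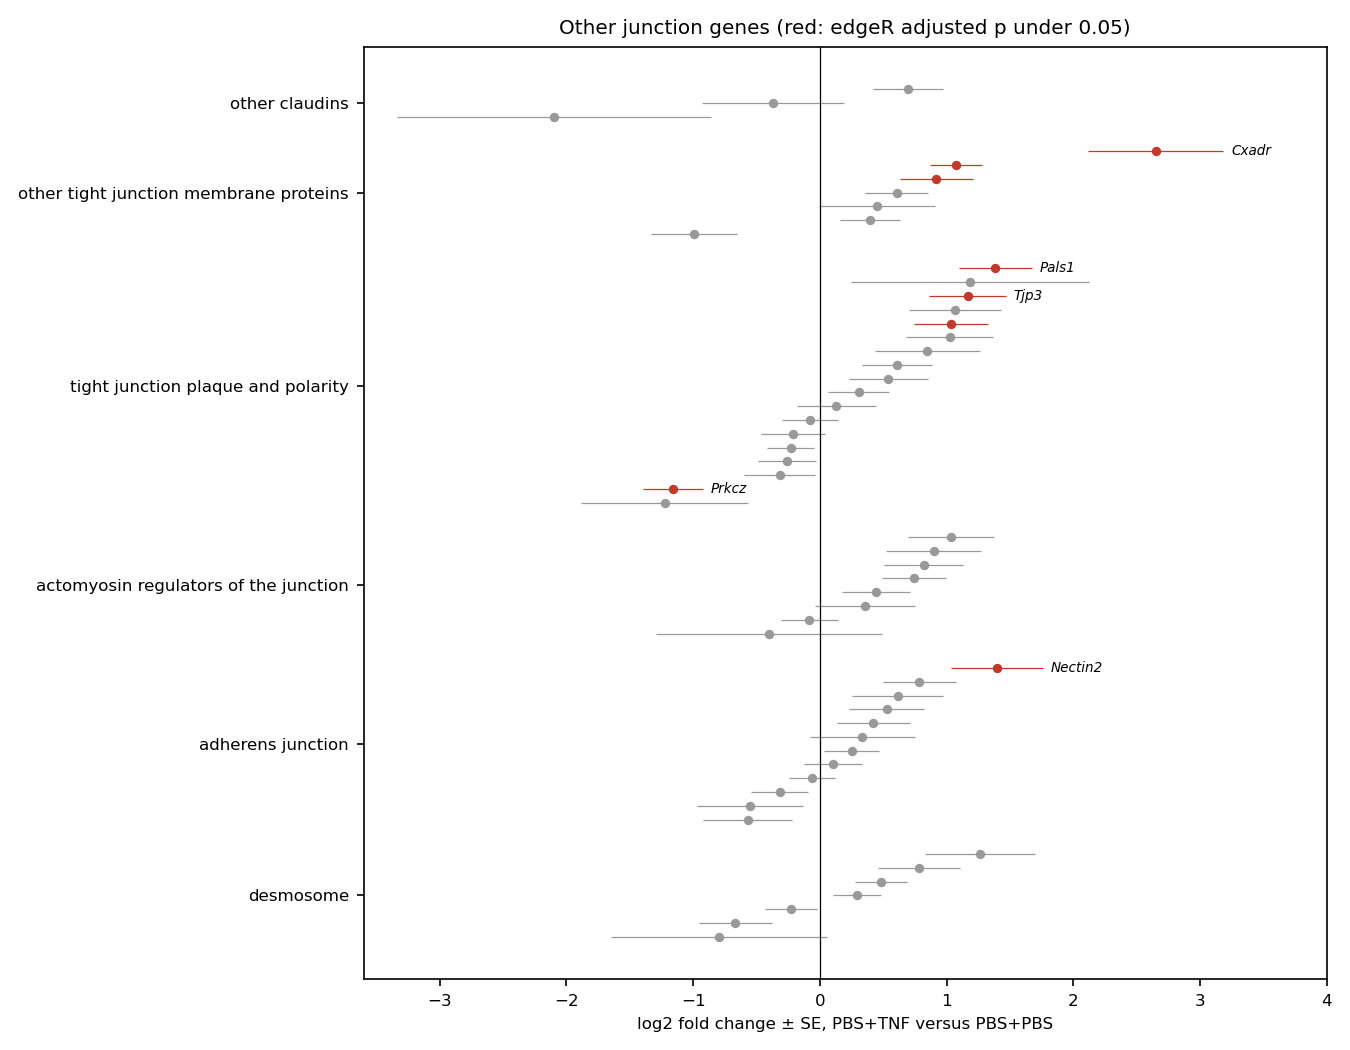
edgeR log2 fold change ± SE (x axis) in PBS+TNF versus PBS+PBS of the 55 tested genes of the junction list, 1 point per gene grouped by role (y axis), red at adjusted p under 0.05. The 7 red points to the right of 0 run from 0.92 (Lsr) to 2.65 (Cxadr), Prkcz lies at -1.16, and the 4 highest and Prkcz carry their names.

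The genes whose pattern over the 16 libraries was most like that of F11r and Cldn7 were found by the root mean square difference of log2 CPM, each gene centred on its own mean. For F11r they included Gabpb1 at 0.20 and Bcl10 at 0.22, against an SD of 0.82 of F11r itself. For Cldn7 they were Casp8 at 0.15, Arpc4 at 0.17 and Dbnl at 0.17, against an SD of 0.52. Among the 10 genes the closest pairs were Tjp1 with Cgn at 0.27, Cldn3 with Ocln at 0.28, and, of the genes that rose, Cldn7 with F11r at 0.34. The points of these comparisons share libraries and the groups set much of the pattern, so the values describe likeness only.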

How the data were processed

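RNA was measured in 16 libraries of purified mouse Paneth cells. Per the labels, RNA was made with a column kit and libraries with a stranded mRNA kit. The authors deposited unnormalized counts of reads for each Ensembl gene and library. The submitters' processing notes name FastQC 0.12, STAR 2.7.10a, DESeq2 and the mm39 build. The counting program, its strand setting and its treatment of reads with several matches are not given in the sources used here.

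Genes were kept with filterByExpr, which left 11809 of 55414, and tested with the quasi-likelihood test of edgeR 4.0.16 (R 4.3.3, TMM factors, robust, all 4 groups in one fit without covariates). P-values were adjusted by Benjamini-Hochberg over all tested genes, called at 0.05. SE is the log2 fold change divided by the root of the F statistic. CPM use tested-gene totals times the TMM factor, and CPM per kb the merged exon length of GENCODE M39, in which 54749 identifiers had an entry. Replicates are biological per the series design, and whether same-numbered libraries share a batch is not stated. Reads carry no molecular identifiers.

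The genes and lists were chosen with earlier results of these data known. Named were the 10 genes, in each comparison at most 4 called genes per direction of the junction list, the 3 genes most like F11r and Cldn7, and check and marker genes. Some of the genes this rule covers are not reported here by name. Alternatives were other scalings, filters and groups, DESeq2 1.42.0, a replicate block and leaving out libraries. Where a library was left out and 3 remained, all groups still shared 1 estimate of the spread.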

Additional observations from a re-analysis of the deposited data

Results flagged for a closer look

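The level of Cldn2 in PBS+PBS library 4 stood apart from its group. It was 70.1 CPM, and the other 3 PBS+PBS libraries had 177 to 189 CPM. The gap to the nearest library was 0.899 of the range of the group, above Dixon's 95% critical value for 4 libraries. Of 40 groups examined, 10 genes in 4 groups, this was the 1 that passed the limit, and chance alone passes about 1 in 20 groups. The same library had the highest F11r and Cldn7 of its group, at 101 and 154 CPM, and the lowest Tjp1 and Cgn, at 25.5 and 17.2 CPM. Its TMM factor, 0.503, was the lowest of PBS+PBS. With this library and PBS+TNF library 1 left out, a choice made after seeing the data, F11r had a log2 fold change of 1.66 (edgeR adjusted p = 0.00823), Cldn7 of 1.12 (adjusted p = 0.00874) and Cldn2 of 1.34 (adjusted p = 0.132) with TNF. The part of that library's composition in its Cldn2 value was not tested.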

How the results depend on the processing

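The counts of calls depended most on which libraries shared the estimate of the spread and on the scaling. In PBS+TNF against PBS+PBS, 2 of the 10 genes were called by edgeR. The number was 3 by DESeq2 (with Cldn2), 4 with only the groups compared (F11r, Cldn7, Cldn2 and Cldn4), 4 without DEX+TNF libraries 3 and 4, 1 with library totals only and 1 at an adjusted p under 0.01, and 2 to 3 with any 1 library left out (Cldn2 as the third without DEX+TNF library 3 or 4). Of the other junction genes 8 were called. The number was 15 by DESeq2, 13 with only the groups compared, 18 without DEX+TNF libraries 3 and 4, 0 with library totals only, 4 at an adjusted p under 0.01, and 4 to 15 with 1 library left out. In DEX+TNF against DEX+PBS, 0 of the 10 genes were called, 4 without DEX+TNF libraries 3 and 4 and 0 to 2 with 1 library left out. The other junction genes called there were 0, against 2 by DESeq2, 16 without DEX+TNF libraries 3 and 4 and 0 to 3 with 1 library left out. In DEX+TNF against PBS+TNF, DESeq2 called 1 other junction gene and edgeR 0. The cause was not tested. Over all genes the 1476 calls with TNF were 228 with library totals only, 2061 by DESeq2 and 916 to 1698 with 1 library left out. The 40 in DEX+TNF against DEX+PBS were 259 by DESeq2, 1286 without DEX+TNF libraries 3 and 4, 6 without a low-count filter, 0 with library totals only, and, with 1 library left out, 362 when it was DEX+TNF library 3, 230.0 when it was library 4 and 0 for each other library. The 40 in DEX+TNF against PBS+TNF were 274 by DESeq2, 0 without DEX+TNF libraries 3 and 4 and 0 to 102 with 1 library left out. No alternative called any of the 10 genes in DEX+PBS against PBS+PBS, in DEX+TNF against PBS+TNF or in the interaction.

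Upper-quartile factors moved the all-gene median difference with TNF, on the log2 scale, from -0.03 to -0.15, and reversed Cldn15 to -0.0631 and Ocln to -0.0058. Leaving out 1 library gave -0.024 (without PBS+TNF library 2, also reversed) to 0.15 for Cldn15. Without division by length the Cldn2 share was 25.6% in PBS+PBS, 38.6% in PBS+TNF, 31.7% in DEX+PBS and 38.0% in DEX+TNF. Library totals only, the paired removal of PBS+PBS 4 and PBS+TNF 1, and shares not divided by length were chosen after seeing the data.

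Same-numbered libraries did not all deviate together: their correlations over genes ran from -0.365 to 0.504, with a median of 0.115 against -0.0615 for different numbers, and all pairs of number 2 were positive, at 0.153 to 0.412. With the replicate block 2 of the 10 genes and 11 other junction genes were called with TNF, and no call of the 10 genes changed in any comparison. Over all genes the block gave 1482 calls with TNF against 1476, 0 in DEX+TNF against DEX+PBS and 16 in DEX+TNF against PBS+TNF, against 40 in each. Depth limits Cldn23, with 22 to 135 counts per library, most.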
